A study of Mus musculus with 24 samples.

Results

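Collagens, laminins and integrins are the 3 large gene families through which a cell builds its matrix and holds on to it, and 81 protein-coding mouse genes carry their names. Genes were taken as members when their symbol was Col, Lama, Lamb, Lamc, Itga or Itgb followed by the number or letter of the chain, so no measured value chose them. They comprised 44 collagen, 11 laminin and 26 integrin genes out of the 21631 protein-coding genes and 56923 gene identifiers counted in the series. RNA was read from nuclei of cardiomyocytes (CMs), the contractile cells of the heart, sorted by flow cytometry for PCM1, a centriolar satellite protein that lines the CM nucleus. Ventricles of mice on a C57BL/6N background, of either sex, were taken at postnatal days 1, 7 and 14 (P1, P7 and P14). All mice carried loxP-flanked alleles of Casp2, the gene of the protease caspase-2 (Casp2 fl/fl). In XMLC2+Casp2fl/fl mice, called Casp2-depleted here, a Cre recombinase under the XMLC2 promoter deletes Casp2 in CMs, and XMLC2-Casp2fl/fl mice without Cre served as control. Each library came from a pool of 15 hearts at P1, 6 at P7 and 2 at P14, with 4 libraries per day and genotype. The study left out 3 of the 24 libraries for low quality, replicate 1 of P1 control and, at P14, replicate 3 of control and replicate 1 of Casp2-depleted, and the 21 others were fitted here. This left 3 or 4 libraries in each of the 6 groups.

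The matrix around a CM is a basement membrane joined to a fibrillar network. Laminins are trimers of an α, a β and a γ chain that assemble on the cell surface, and type IV collagen forms the second sheet of the basement membrane. Fibrillar collagens, chiefly types I, III and V in heart, are made mostly by fibroblasts and give the tissue its tensile strength. Integrins are the αβ receptors that bind these ligands and link them to the cytoskeleton, and in striated muscle the β1 chain pairs with α7, a laminin receptor, and in immature muscle also with α5, the fibronectin receptor.

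The 250 bases before the annotated start of Lamb1 and of Lamb2, which encode alternative β chains, are shown because these 2 genes passed in more comparisons than any other member. Both stretches were read from the GRCm39 genome on the plus strand, at chr12:31314780-31315029 for Lamb1 and at chr9:108356685-108356934 for Lamb2, each ending at the base before the gene start of GENCODE vM39. Capitals mark the letters TATAAA.
Lamb1: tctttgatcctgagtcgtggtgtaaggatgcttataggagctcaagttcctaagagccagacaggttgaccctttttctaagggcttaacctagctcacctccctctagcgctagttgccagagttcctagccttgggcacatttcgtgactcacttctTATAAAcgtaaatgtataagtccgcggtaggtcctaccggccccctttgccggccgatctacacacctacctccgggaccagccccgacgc
Lamb2: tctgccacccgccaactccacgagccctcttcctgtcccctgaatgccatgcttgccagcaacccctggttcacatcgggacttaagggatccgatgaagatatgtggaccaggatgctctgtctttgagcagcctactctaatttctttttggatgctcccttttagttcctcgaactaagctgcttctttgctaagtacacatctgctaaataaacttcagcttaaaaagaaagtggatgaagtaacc
The Lamb1 stretch held 52.8% G and C and the Lamb2 stretch 47.2%. TATAAA was found once before Lamb1, on the plus strand, and not before Lamb2, and GGGCGG and CCAAT were found before neither gene on either strand. Over the 250 bases before all 21631 protein-coding genes, counting both strands, TATAAA occurred in 12.5%, GGGCGG in 29.9% and CCAAT in 36.1%. The Lamb1 stretch also overlapped Gm61290, a gene model of the same annotation. These matches describe the letters in the windows only.

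The 21 libraries held 891817 to 2924097 reads on genes and detected 7628 to 17770 genes, and 34.3 to 76.1% of their uniquely placed reads lay on no annotated gene. That last share differed between days, with 34.3 to 64.3% at P7 and 63.7 to 76.1% at P14. Casp2 itself had 9 reads in all at P7 in control libraries, 8 at P7 in Casp2-depleted libraries and none at P1 or P14, so the counts could not check the genotype labels. Of the 10 CM markers 9 were read in all 21 libraries and Pcm1, the gene of the sorted protein, in 20, and their summed level was 46550 to 83592 CPM at P7 and 12368 to 45419 CPM at P14. CPM of single genes are reads scaled to a common total of reads on genes (counts per 1000000) after TMM scaling, which evens out differences in library composition. The sums over markers are per 1000000 reads on genes without TMM scaling, so they are not on the scale of the members. Markers of other heart cells were low but present. The 9 fibroblast markers summed to 33.3 to 191 CPM at P7 and 188 to 380.1 CPM at P14, and the 9 endothelial markers to 129 to 383 CPM and 51.6 to 1115 CPM, with Egfl7 at 0 in every library. The 7 mural markers summed to 260.4 to 491 CPM at P7 and 67.2 to 510.3 CPM at P14. The 9 macrophage markers summed to 42.0 to 233 CPM and 44.9 to 303 CPM, with C1qc and Cd68 at 0 in every library. In such bulk samples fewer nuclei of a type and less RNA per nucleus cannot be told apart.

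Together the members held 126900 reads in the 21 libraries, 58410 on collagens, 34311 on laminins and 34179 on integrins. A test required 10 or more reads over the 21 libraries and detection in 3 or more of them, which 76 members met, and 22 were read in every library. The 5 untested members were Col10a1 and Itgam, which had no read, and Col9a2, Col9a3 and Itgax. Itgam lies inside Gm49368, a gene model on the same strand. Of the protein-coding genes that lie inside another gene on the same strand, 9.13% had any read, against 66.1% of those inside a gene on the other strand and 69.0% of those with no overlapping gene. A missing count for Itgam is therefore no measure of its RNA.

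Levels were compared between genes per kilobase of gene span, since nuclear RNA was counted over exons and introns. Libraries were read from transcript 3′ ends, where reads need not grow with span, so this measure can place short genes high. As a scale, 21 long genes of synaptic proteins, which CMs are not known for, were taken after the counts had been seen, and these stood at 0.223 to 0.608 CPM per kb. Of the 81 members, 20 had a mean level over that range, 32 a level within it and 29 a level under it. The families differed in this, with 5 of 44 collagens, 5 of 11 laminins and 10 of 26 integrins over the range. The highest member was Lamb2 at 5.38 CPM per kb, followed by Itga5 at 2.27, Itga2b, the platelet fibrinogen receptor chain, at 1.66, and Lamb1 at 1.18. The order depends on the division by span. Lamb2 had a mean of 58.1 CPM over 10.8 kb, and Lama2 a mean of 557 CPM over 640 kb. The main fibrillar chain Col1a1 stood at 1.12 CPM per kb and the paired type IV chains Col4a2 and Col4a1 at 1.09 and 1.08. The muscle receptor chains Itgb1 and Itga7 stood at 1.09 and 1.02 CPM per kb, Itgb8, a receptor chain for latent TGF-β, at 1.04, and the muscle laminin chain Lama2 at 0.871. Other chains that fibroblasts and vessels are known for stood on both sides. Col8a1 at 0.724 CPM per kb, Col1a2 at 0.660 and Lama4 at 0.654 were just over the range, and others were within it, as Col3a1 at 0.584 CPM per kb and Col5a2 at 0.362, or under it, as Col15a1 at 0.157, Col6a1 at 0.103 and Col18a1 at 0.0568. Single libraries weighed heavily on many of these means. The library with the most reads of a member held 8.67 to 67.6% of its reads over the tested members, with a median of 17.5%, and the median over all tested genes was 21.5%. Neighbours in this order are therefore not shown to differ.

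**Figure D1:**
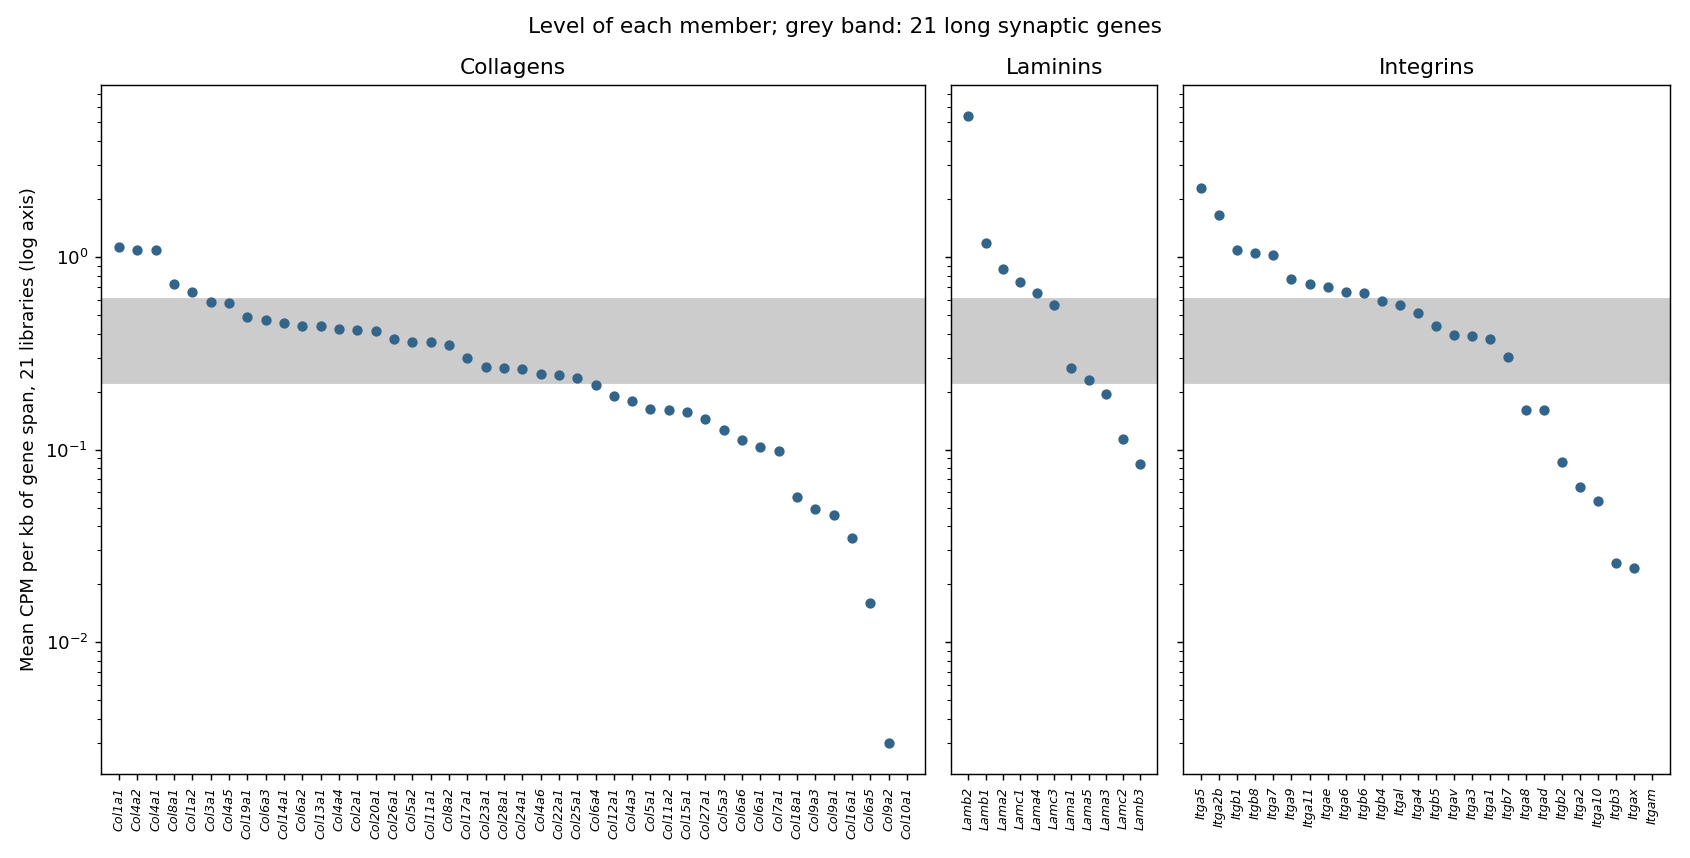
Mean level of each of the 81 members over 21 libraries, in CPM per kb of gene span on a log axis, by family and in falling order. The grey band spans the 21 long synaptic genes, from 0.223 to 0.608 CPM per kb. Col10a1 and Itgam had no read and carry no point, and 5 collagens, 5 laminins and 10 integrins stand over the band.

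Between P7 and P14, 3 of the 76 tested members were called lower and none higher as the mean of both genotypes. These were the laminin chains Lamb1 and Lamb2 and the integrin chain Itga9. A gene was called when edgeR's quasi-likelihood test gave a Benjamini-Hochberg adjusted p under 0.05 over all 20368 genes tested, with an absolute log2 fold change over 1. Over all genes the same comparison called 8.19%, and 8.01% were called lower, so the 3.95% of members called was under the share of genes at large. The median log2 fold change was -0.30 over the members and -0.87 over all genes, and setting genes at 0 in one group to their limits gave -0.30 and -0.83. The families differed in their medians, with -0.09 for 41 collagens, -0.49 for 24 integrins and -1.75 for 11 laminins. Fitted values were under 0 for 23 collagens, 17 integrins and 9 laminins. At an unadjusted p under 0.05, 2 members were higher, where 2.21% of all genes were, and 10 were lower, where 25.4% were. Every library of P7 stood over every library of P14 for 3 members, Itga5, Lamb1 and Lamb2, and such separation in either direction was seen in 3.87% of all genes. DESeq2, an alternative that called 8 members, 3 of them higher, called 2375 of all genes and 328 of those higher, against 1668 and 36 here. Without P14 control replicate 2, 6 members were called, with Itga5, Itga8, Itgb5 and Lama4 beside Lamb1 and Lamb2 and without Itga9.

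Lamb1 encodes the β1 chain, the laminin β chain of early basement membranes, and lies at chr12:31315030-31379658 on the plus strand, overlapping Dld on the other strand. Whether the counting used strand is not given in the sources used here, and the shares of overlapping genes with reads, above, are the only values that bear on it. In control libraries it stood at 58.4, 113 and 63.6 CPM at P1, at 165, 138, 126 and 14.2 CPM at P7 and at 4.24, 0.75 and 0 CPM at P14. In Casp2-depleted libraries it stood at 200.1, 62.4, 0 and 284 CPM at P1, at 159, 69.0, 83.2 and 55.5 CPM at P7 and at 0 CPM in all 3 libraries of P14. Lamb1 was thus read in every library of P7, while P14 held 7 reads in its 6 libraries against 1345 reads in the 8 libraries of P7. The mean fell from 101 ± 53.9 CPM (SD, n = 8) at P7 to 0.832 ± 1.70 CPM (SD, n = 6) at P14, a log2 fold change of -8.06 ± 1.07 (SE, edgeR adjusted p = 1.86e-11), or -7.19 relative to the median of all genes. P1 stood at 112 ± 97.9 CPM (SD, n = 7), and between P1 and P7 the log2 fold change was -0.04 ± 0.65 (edgeR adjusted p = 1.0). In control libraries alone the change from P7 to P14 was -5.97 ± 1.29 (edgeR adjusted p = 0.000708). In Casp2-depleted libraries P14 had no read, and against the limit of 3 reads over the group, 0.662 CPM, Lamb1 was at least 151-fold lower than at P7 and at least 231-fold lower than at P1 (edgeR adjusted p = 9.78e-07 and 3.84e-07). Such bounds, here and below, cover counting error only and not the spread between libraries.

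Lamb2 encodes the β2 chain, which replaces β1 in mature muscle basement membrane and at synapses, and lies at chr9:108356935-108367729 on the plus strand. In control libraries it stood at 0, 12.7 and 44.5 CPM at P1, at 165, 167, 126 and 109 CPM at P7 and at 7.78, 5.25 and 0 CPM at P14. In Casp2-depleted libraries it stood at 77.4, 0, 0 and 208 CPM at P1, at 118, 69.8, 61.9 and 40.8 CPM at P7 and at 7.76, 0 and 0 CPM at P14. P7 was the only day on which every library held Lamb2 reads, and P1 ranged from the level of P14 to over that of P7. The mean was 48.9 ± 75.9 CPM (SD, n = 7) at P1, 107 ± 46.7 CPM (SD, n = 8) at P7 and 3.46 ± 3.90 CPM (SD, n = 6) at P14. From P7 to P14 the log2 fold change was -4.89 ± 0.96 (edgeR adjusted p = 2.6e-05), with -5.00 ± 1.36 in control libraries (edgeR adjusted p = 0.0186) and -4.79 ± 1.35 in Casp2-depleted ones (edgeR adjusted p = 0.0191). Relative to the median of all genes the change was -4.03. Between P1 and P7 the log2 fold change of 1.46 ± 0.76 did not pass (edgeR adjusted p = 0.581).

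The share of reads on no gene moved with day. The 2 laminin genes differed in the P1 libraries whose share was close to that of P14. There were 5 libraries of P1 with 60.7 to 73.9% of reads on no gene, a range close to the 63.7 to 76.1% of P14. In these 5, Lamb1 stood at 58.4, 113, 63.6, 62.4 and 0 CPM, so that 4 of 5 stood over every library of P14. Lamb2 stood at 0, 12.7, 44.5, 0 and 0 CPM in the same libraries, and 3 of 5 fell within the range of P14. The other 2 libraries of P1, both Casp2-depleted, had 49.8 and 36.8% of reads on no gene and the highest P1 levels of both genes. With this share added to the fit as a term, an alternative chosen after the data had been seen, the change of Lamb1 from P7 to P14 was -6.15 and stayed called (edgeR adjusted p = 0.000110). That of Lamb2 was -1.56 and was no longer called (edgeR adjusted p = 0.804). Both changes were smaller than in the main fit, and in control libraries alone Lamb1 lost its call with this term as well. Whether the share itself acted on either gene was not tested.

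**Figure D2:**
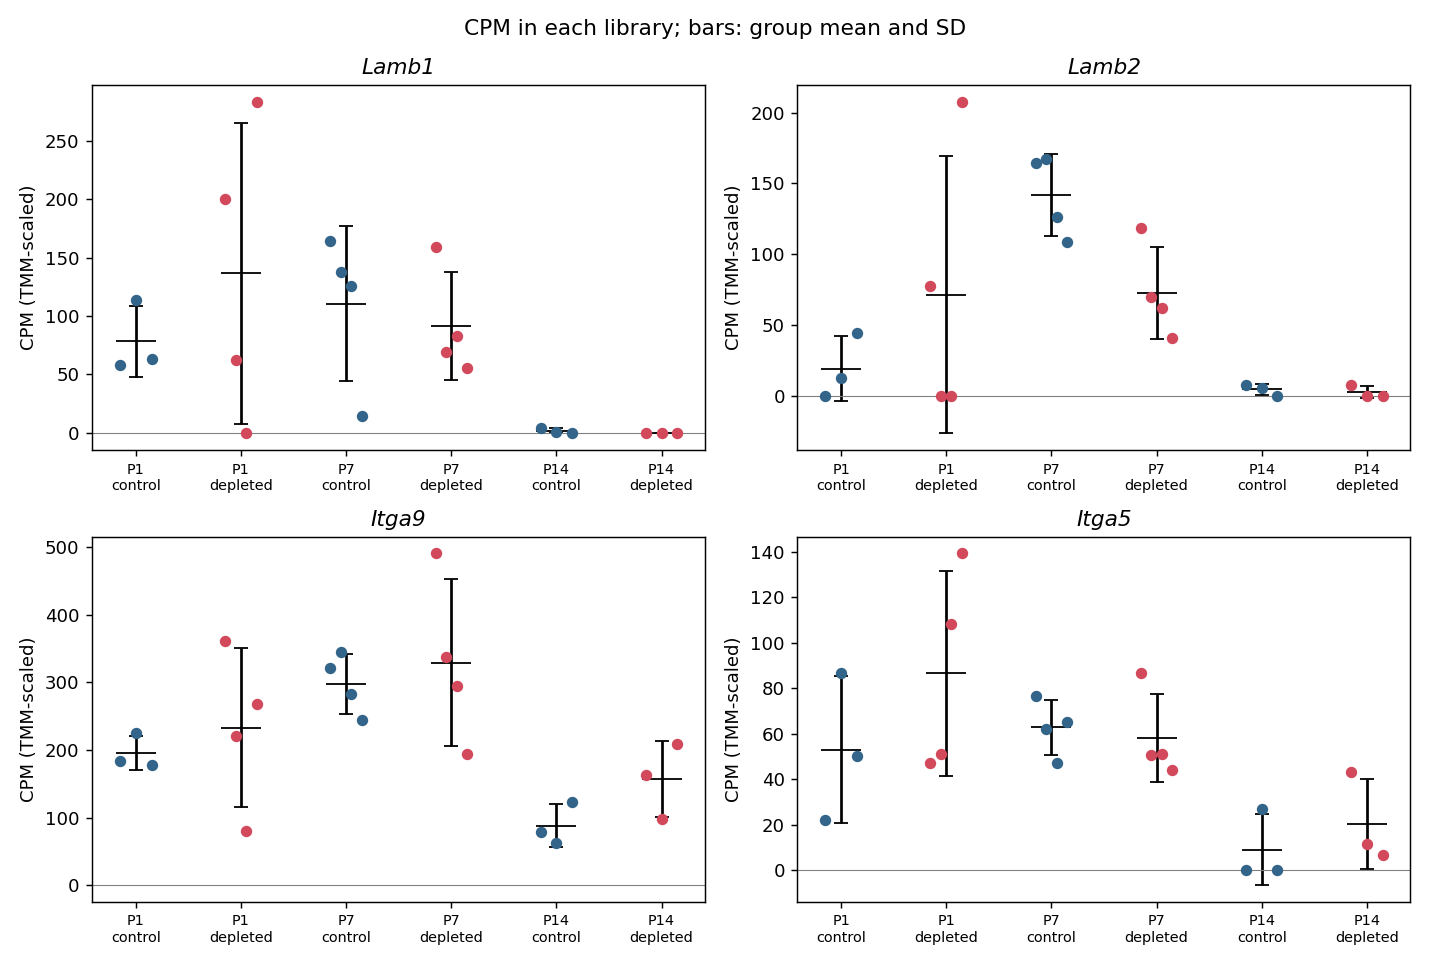
CPM of Lamb1, Lamb2, Itga9 and Itga5 in each of 21 libraries, by day and genotype, with control in blue and Casp2-depleted in red. Horizontal and vertical bars are the group mean and SD. Lamb1 is at 4.24 CPM or less in all 6 libraries of P14 and Lamb2 at 7.78 CPM or less, under every library of P7.

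Itga9 encodes the α9 chain, which pairs with β1 and binds tenascin-C and osteopontin among other ligands. In control libraries it stood at 184, 225 and 177 CPM at P1, at 320.5, 345, 282 and 244 CPM at P7 and at 79.2, 62.3 and 123 CPM at P14. In Casp2-depleted libraries it stood at 362, 220.3, 79.9 and 268 CPM at P1, at 490.5, 338, 294 and 194 CPM at P7 and at 163, 97.7 and 209 CPM at P14. The highest P14 library stood over the lowest P7 library, both Casp2-depleted, and apart from that pair the 2 days did not overlap. The mean fell from 313 ± 87.4 CPM (SD, n = 8) to 122 ± 55.2 CPM (SD, n = 6), by -1.41 ± 0.49 on the log2 scale (edgeR adjusted p = 0.0472), or -0.55 relative to the median of all genes. The call lay close to the threshold, with adjusted p between 0.0154 and 0.908 over the alternatives, and leaving out any single library of P7 or P14 other than P7 Casp2-depleted replicate 4 or P14 control replicate 4 ended it, as did the replicate number as a block (edgeR adjusted p = 0.06). With the share of reads on no gene in the fit the change was -0.61 and not called (edgeR adjusted p = 0.908).

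**Figure D3:**
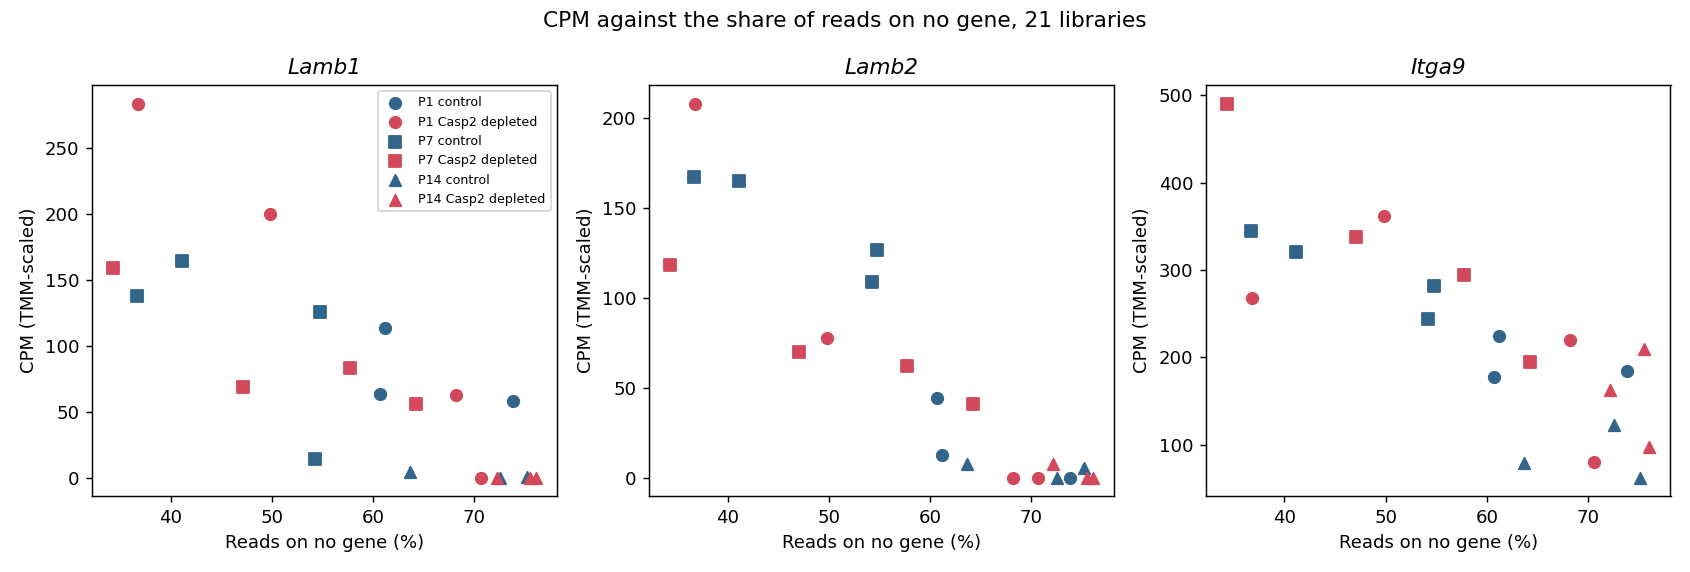
CPM of Lamb1, Lamb2 and Itga9 against the percent of uniquely placed reads on no gene, 1 symbol per library, with circles for P1, squares for P7, triangles for P14, blue for control and red for Casp2-depleted. Libraries of P14 lie at 63.7 to 76.1% and those of P7 at 34.3 to 64.3%. Among the 5 libraries of P1 at 60.7 to 73.9%, 4 have Lamb1 over every P14 library, while 3 have Lamb2 at 0. The P1 libraries outside that range hold the highest P1 levels of both laminin genes.

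The remaining laminin genes were not called between P7 and P14. Lama4, the α chain of vessel and early muscle basement membranes, stood at 82.5 to 255 CPM at P7 with a median of 132, and at 0 to 88.5 CPM at P14 with a median of 43.8. Its log2 fold change was -1.75 ± 0.64 (edgeR adjusted p = 0.0631), and the ranges of the days met only at the 82.5 and 88.5 CPM of 1 control library each. Lama5, an α chain of epithelial and vessel membranes, had -3.84 ± 1.87 (edgeR adjusted p = 0.16) on 258 reads at P7 and 13 at P14. Lama2, whose loss causes a congenital muscular dystrophy, was the laminin gene with the most reads. It stood at 413 to 737 CPM at P1, 394 to 863 CPM at P7 and 336 to 742 CPM at P14, with a log2 fold change from P7 to P14 of -0.31 ± 0.38 (edgeR adjusted p = 0.676). The common γ chain gene Lamc1 had 98.0 ± 69.1 CPM (SD, n = 8) at P7 and 63.1 ± 53.7 CPM (SD, n = 6) at P14, a change of -0.70 ± 0.66 (edgeR adjusted p = 0.546).

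No collagen was called in any comparison. The type IV genes Col4a1 and Col4a2 form one trimer and are transcribed from a shared promoter region. Per kb of gene span they were the collagens of the basement membrane with the highest levels. In mean CPM over all days, Col4a5 stood at 124.1 and Col4a1 at 123.8. Col4a1 stood at 175 ± 99.5 CPM (SD, n = 8) at P7 and 69.2 ± 31.2 CPM (SD, n = 6) at P14, and Col4a2 at 172 ± 85.1 and 121 ± 62.4 CPM. Their log2 fold changes were -1.30 ± 0.58 (edgeR adjusted p = 0.121) and -0.66 ± 0.54 (edgeR adjusted p = 0.459). The days overlapped for both. Among fibrillar chains, Col1a1 stood at 0 to 64.9 CPM at P7 and 0 to 32.8 CPM at P14, with a change of -0.94 ± 1.36 (edgeR adjusted p = 0.747). Col1a2, its partner in type I collagen, had a change of -0.85 ± 1.21 (edgeR adjusted p = 0.741). Col3a1 had -2.53 ± 1.28 (edgeR adjusted p = 0.176).

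The minor fibrillar, beaded-filament and vessel-associated collagens had few reads and wide spread. Col5a2, a chain of the type V collagen that starts fibrils, stood at 8.72 to 63.5 CPM at P7 and 4.59 to 79.9 CPM at P14, with a log2 fold change of 0.13 ± 0.85 (edgeR adjusted p = 1.0), and its partner Col5a1 of -0.63 ± 1.19 (edgeR adjusted p = 0.835). Col6a1 and Col6a2, chains of the type VI collagen that surrounds muscle cells, had 45 and 193 reads at P7 and 3 and 89 at P14, with changes of -3.61 ± 2.02 and -0.72 ± 1.55 (edgeR adjusted p = 0.234 and 0.866). Col15a1 and Col18a1, which sit at the outer face of basement membranes, had changes of 0.16 ± 1.38 and -2.31 ± 1.98 (edgeR adjusted p = 1.0 and 0.49). Col6a1 and Col18a1 were at 0 in most libraries of P14.

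The 2 members that were higher at P14 at an unadjusted p under 0.05 were both collagens. Col11a1, a fibrillar chain best known from cartilage, stood at 43.2 ± 32.1 CPM (SD, n = 8) at P7 and 122 ± 68.1 CPM (SD, n = 6) at P14, a log2 fold change of 1.46 ± 0.70 (edgeR adjusted p = 0.149). Col14a1, a collagen that sits on the surface of fibrils, stood at 59.4 ± 31.6 and 149.5 ± 54.4 CPM, a change of 1.34 ± 0.62 (edgeR adjusted p = 0.132). Col8a1, a short-chain collagen of vessel walls, stood at 37.4 to 109 CPM at P7 and 99.7 to 189 CPM at P14, a change of 0.91 ± 0.62 (edgeR adjusted p = 0.355). None of these passed. Relative to the median of all genes their changes were 2.33, 2.21 and 1.77. Without TMM scaling, and so on another scale than these collagens, the 9 fibroblast markers summed to means of 280 CPM at P14 and 119 CPM at P7. None of the 9 was called, and their median log2 fold change was -0.54. Their part in these values was not tested.

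Among integrins, Itga5 had P7 and P14 apart without being called. It encodes the α5 chain of the fibronectin receptor and stood at 76.9, 61.9, 47.1 and 65.2 CPM in control and at 86.9, 50.7, 50.9 and 44.3 CPM in Casp2-depleted libraries of P7. At P14 it stood at 0, 27.0 and 0 CPM in control and at 43.0, 11.3 and 6.55 CPM in Casp2-depleted libraries. The lowest library of P7, at 44.3 CPM, and the highest of P14, at 43.0 CPM, were close. The log2 fold change was -2.16 ± 0.88 (edgeR adjusted p = 0.0940). Itgb1, the β chain shared by most matrix-binding integrins, stood at 28.1 to 134 CPM at P7 and 8.83 to 76.7 CPM at P14, with a change of -1.47 ± 0.84 (edgeR adjusted p = 0.242). Itga7, the α chain of the adult muscle laminin receptor, stood at 23.8 to 52.5 CPM in all 8 libraries of P7. At P14 it was split, with 50.9 and 50.5 CPM in 2 libraries and 9.0 CPM or less in the other 4, and its change was -1.20 ± 1.20 (edgeR adjusted p = 0.576). Itga6, the α chain that precedes α7 in muscle, had a change of -0.01 ± 0.68 (edgeR adjusted p = 1.0), and Itgb8 of 0.68 ± 0.65 (edgeR adjusted p = 0.548).

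The collagen receptor chain gene Itga1 stood at 0 to 102 CPM at P7 and 0 to 109 CPM at P14, with a log2 fold change of -0.16 ± 0.78 (edgeR adjusted p = 0.99). Itgav, the α chain of several fibronectin and vitronectin receptors, stood at 5.55 to 40.6 CPM at P7 and 6.3 to 118 CPM at P14, a change of 1.43 ± 1.02 (edgeR adjusted p = 0.383). Of its partner chains, Itgb5 had a change of -0.71 ± 0.81 (edgeR adjusted p = 0.647) and Itgb3 of -4.18 ± 2.10 (edgeR adjusted p = 0.173). Itgb3 had 39 reads at P7 and 1 at P14. Itgb5 was read in all 8 libraries of P7, at 19.8 to 75.2 CPM, but in 4 of 6 at P14, of which P14 control replicate 2 had 96.8 CPM and the other 2 control libraries 0. Itga2b, high per kb for its short gene, stood at 1.44 to 49.5 CPM at P7 and 0 to 73.1 CPM at P14, and the days overlapped for it as for Itga1, Itgav and Itgb5.

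**Figure D4:**
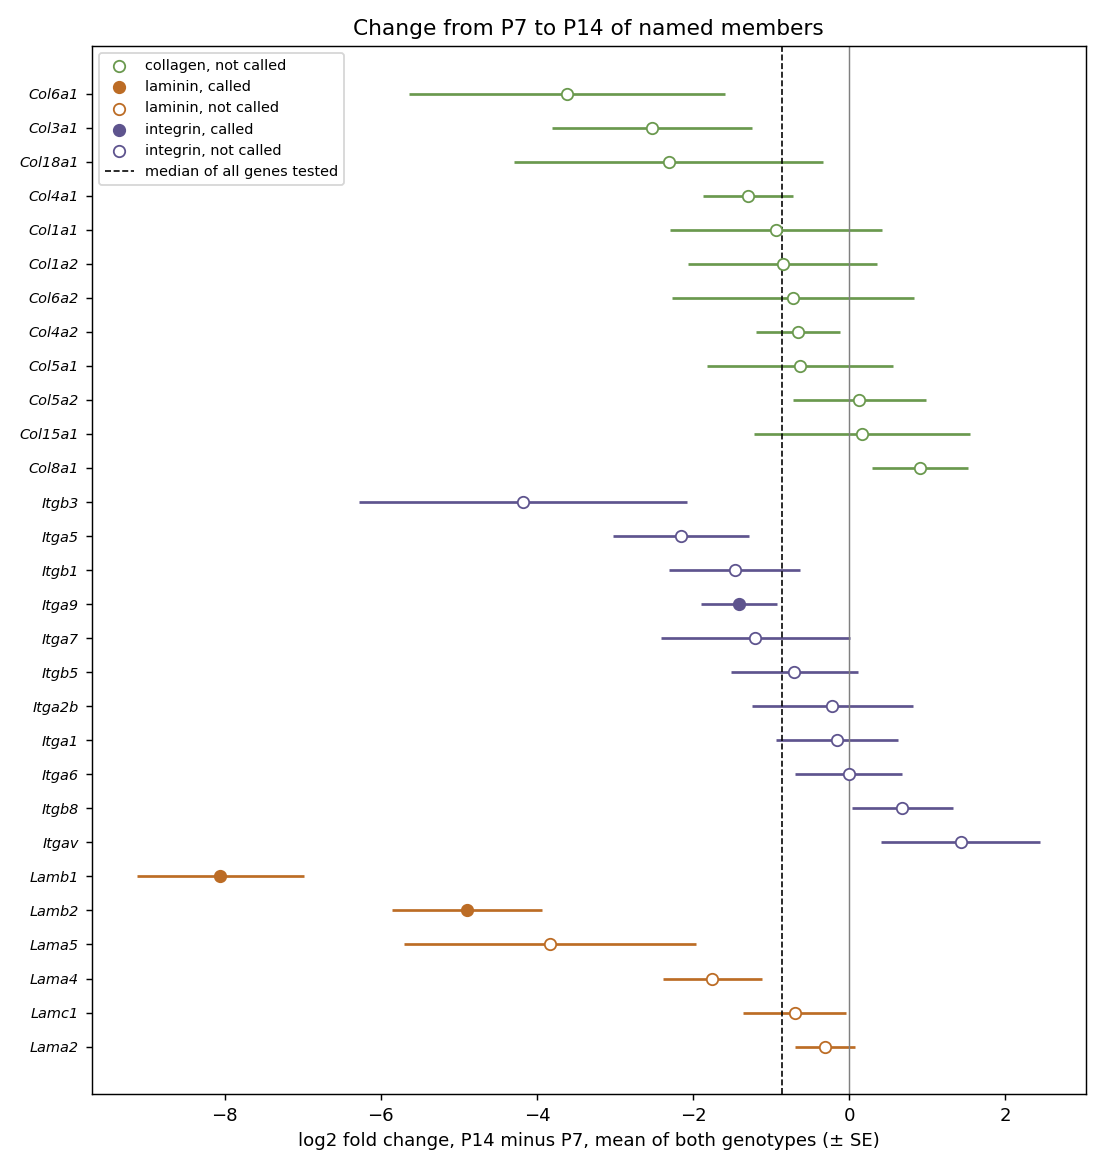
Log2 fold change from P7 to P14, mean of both genotypes, with its standard error, for 29 members of a list known in myocardium or with high levels. Filled circles were called and open ones were not, and the dashed line is the median of all genes tested, -0.87. Lamb1 at -8.06 and Lamb2 at -4.89 stand apart from the other members called, Itga9 at -1.41.

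Within each genotype the calls between P7 and P14 were the laminin β chains alone. In control libraries 2 members were called, Lamb1 and Lamb2, where 1.93% of all genes were, and in Casp2-depleted libraries the same 2, where 3.01% were. The call of Lamb2 within 1 genotype was lost in both genotypes with filterByExpr (edgeR adjusted p = 0.112 in control and 0.108 in Casp2-depleted libraries), with all 24 libraries (edgeR adjusted p = 0.146 and 0.126) and with a term for reads outside genes (edgeR adjusted p = 0.879 and 0.863), and in Casp2-depleted libraries with only the groups compared (edgeR adjusted p = 0.117). Single libraries decided it too. In control it was lost without P7 replicate 1 or 2 or P14 replicate 2 or 4 (edgeR adjusted p = 0.0705, 0.0905, 0.0693 and 0.135), and in Casp2-depleted libraries without P7 replicate 1 or P14 replicate 3 or 4 (edgeR adjusted p = 0.10, 0.221 and 0.212). The call of Lamb1 in control was lost with all 24 libraries (edgeR adjusted p = 0.0509), with only the groups compared (edgeR adjusted p = 0.0562) and with a term for reads outside genes (edgeR adjusted p = 0.245). Libraries of P7 and P14 did not overlap for 15 members in control, 4 higher and 11 lower, where 15.4% of all genes were apart, and for 8 members in Casp2-depleted libraries, 3 higher and 5 lower, where 13.2% were. The shares of members were 19.7% and 10.5%.

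Between P1 and P14, the 2 members called, Lamb1 and Lamb2, were lower as the mean of both genotypes, where 3.99% of all genes were called and 3.82% lower. Lamb1 changed by -8.10 ± 1.08 (edgeR adjusted p = 4.06e-11) and Lamb2 by -3.43 ± 0.91 (edgeR adjusted p = 0.00822) on the log2 scale. In control libraries Lamb1 alone was called, at -5.48 ± 1.28 (edgeR adjusted p = 0.00943), where 0.363% of all genes were. In Casp2-depleted libraries both were called, where 2.17% of all genes were, with Lamb2 at -4.76 ± 1.35 (edgeR adjusted p = 0.0275). The call of Lamb2 was lost under several alternatives. As the mean it was lost with filterByExpr (adjusted p = 0.0589), limma-voom (0.533), a block for the replicate number (0.0901), only the groups compared (0.247) and a term for reads outside genes (1.0), the last with a change of -0.32. In Casp2-depleted libraries, among the alternative fits without a library left out, it held with DESeq2 only (adjusted p = 0.0422), and adjusted p was 0.0517 to 1.0 with the others, the block giving 0.228. With a term for reads outside genes the change there turned to 0.049. The call as the mean was also lost without P1 control replicate 4, P1 Casp2-depleted replicate 4 or P14 Casp2-depleted replicate 3 or 4 (edgeR adjusted p = 0.0983, 0.126, 0.0595 and 0.0552), and in Casp2-depleted libraries without P1 replicate 1 or 4 or P14 replicate 3 or 4 (edgeR adjusted p = 0.0868, 0.366, 0.225 and 0.244). That of Lamb1 in control was lost without P1 replicate 3 or P14 replicate 4 (edgeR adjusted p = 0.0588 and 0.0985). At an unadjusted p under 0.05 there were 6 members, 1 higher and 5 lower, where 19.6% of all genes were under it. These included Itga5 at -2.32 ± 0.90 (edgeR adjusted p = 0.120) and Itga8, the α chain that binds nephronectin, at -2.28 ± 1.15 (edgeR adjusted p = 0.249).

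Between P1 and P7 no member was called. Over all genes 0.0491% were called in control, 0.0245% in Casp2-depleted libraries and 0.133% as the mean of both. At an unadjusted p under 0.05 there were 2 members for the mean, where 8.8% of all genes were under it. These were Itga10, a collagen receptor chain, with 29 reads at P7 and none at P1, and Col9a1, a collagen of cartilage fibrils, with 33 reads and none, which made them at least 8.73-fold and at least 9.93-fold higher at P7 (edgeR adjusted p = 0.369 and 0.404). Both rested on few reads.

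Casp2 depletion was not followed by a called change in any member at any day in the main edgeR fit. Over all genes 0.0% were called at P1 and 0.0% at P7, 0.231% at P14, and 0.0344% as the mean over days, and the interaction of genotype and day called no member and 0.0638% of all genes. At an unadjusted p under 0.05 there were 4 members at P1 (6.4% of all genes), 2 at P7 (3.88%), 5 at P14 (11.7%), 5 for the mean over days (8.27%) and 6 for the interaction (9.5%). With 76 members tested these are 5.26, 2.63, 6.58, 6.58 and 7.89%, each under the share over all genes. Over all genes DESeq2 called 662 at P14, 340 of them higher, against 47 and 11 here. Among members, limma-voom called Col2a1 and Itgb7 at P1, and limma-voom and DESeq2 each called Col3a1 at P14. The smallest adjusted p of any member was 0.680 at P1, 1.0 at P7, 0.294 at P14, 0.378 for the mean and 0.483 for the interaction. The medians over members lay between 0.03 and 0.19 on the log2 scale in the 3 days.

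The 2 genotype differences with the smallest unadjusted p were in fibrillar collagens. At P14 Col3a1, a main fibrillar chain of heart, stood at 0, 1.5 and 0 CPM in control and at 57.1, 32.2 and 30.8 CPM in Casp2-depleted libraries. The groups did not overlap, and the log2 fold change was 6.12 ± 2.21 (edgeR adjusted p = 0.294). At P7 the order was the other way, with 43.8 ± 15.1 CPM (SD, n = 4) in control and 17.4 ± 22.8 CPM (SD, n = 4) in Casp2-depleted libraries, and the interaction did not pass (edgeR adjusted p = 0.483). At P1 Col2a1, the main collagen of cartilage, stood at 57.2, 18.3 and 57.2 CPM in control and at 0 CPM in all 4 Casp2-depleted libraries. This was at least 102-fold lower by counting error alone and was not called (edgeR adjusted p = 0.680). At P7 and P14 Col2a1 was at 0 in some libraries of each genotype. The other collagens with small p in a genotype comparison were Col6a5 and Col11a2 as the mean over days (log2 fold changes 4.63 ± 1.69 and 3.32 ± 1.57, edgeR adjusted p = 0.378 and 0.545), Col16a1 at P7 and Col27a1 at P14 (-5.81 ± 2.79 and 5.09 ± 2.50, edgeR adjusted p = 1.0 and 0.418). These rested on few libraries, as Col16a1 at P7, which was read in 1 control library and in no other, and Col11a2 at P14, which had 39.5 CPM in 1 Casp2-depleted library and 0 in the other 5 libraries.

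At P1 groups did not overlap for 4 members (5.26%), all lower in Casp2-depleted libraries, Col2a1, Col4a6, Itgb7 and Lamb3, where 3.4% of all genes were apart. At P7 this was 1 member (1.32%), Itgb7, where 1.64% were. At P14 it was 6 members (7.89%), 1 higher and 5 lower, namely Col3a1 higher and Col20a1, Col24a1, Col4a2, Col4a6 and Itgb1 lower, where 5.15% were. Of these Itgb1 stood at 39.6, 25.5 and 76.7 CPM in control and at 17.6, 8.83 and 15.1 CPM in Casp2-depleted libraries of P14. Col4a2 stood at 207, 171 and 141 CPM in control and at 91.7, 56.7 and 56.4 CPM. Neither gene was called or had an unadjusted p under 0.05 at P14 in the edgeR fit, and both had overlapping groups at P1 and P7. Itgb7, a chain of lymphocyte integrins, stood at 6.62, 13.4 and 31.0 CPM in control and at 0 in all 4 Casp2-depleted libraries of P1 (edgeR adjusted p = 0.68). Lamb3, a chain of epithelial laminin, stood at 37.3, 11.3 and 31.8 CPM against at most 1.35 CPM (edgeR adjusted p = 0.68). At P14 the order was not kept, with reads of Itgb7 in 1 Casp2-depleted library only and of Lamb3 in 2 libraries of each genotype. Lamb1 at P14 had 7 reads in control and none in Casp2-depleted libraries, at least 2.6-fold lower (edgeR adjusted p = 0.338).

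As a share of all reads on genes, taken without TMM scaling, the members were higher at P14. The fold changes of the called genes, which were lower at P14, rest on TMM-scaled counts. The share and the fold changes are therefore on unlike scales, and the share sums all members while the calls are of single genes. With TMM scaling some collagens with many reads were higher at P14 too, as Col19a1 at 0.377 CPM per kb at P7 and 0.691 at P14. Others were lower, as Col4a1 at 1.53 and 0.605 CPM per kb. Of 41 tested collagens, 23 had a fitted change under 0 from P7 to P14 as the mean of both genotypes. The summed share of the members was 0.421 ± 0.132% (SD, n = 3) at P1 in control and 0.398 ± 0.0742% (SD, n = 4) in Casp2-depleted libraries. At P7 it was 0.296 ± 0.0528% and 0.330 ± 0.0484% (SD, n = 4 each), and at P14 0.476 ± 0.0773% and 0.537 ± 0.0565% (SD, n = 3 each). The 8 libraries of P7 ranged from 0.224 to 0.377% and the 6 of P14 from 0.387 to 0.570%, without overlap, and no test was made of this summed value. Collagens carried most of the difference, with 0.132 ± 0.0243% at P7 and 0.281 ± 0.0410% at P14, while laminins held 0.0919 ± 0.0230% and 0.0999 ± 0.0141%. Integrins held 0.0892 ± 0.0203% and 0.125 ± 0.0335%. The 21 long synaptic genes were higher at P14 as well, at 1.90 ± 0.301% against 0.794 ± 0.271%, and collagen reads per synaptic read had a median of 0.158 at P1, 0.164 at P7 and 0.149 at P14. All members per synaptic read had a median of 0.303 at P1, 0.352 at P7 and 0.266 at P14. Without the 10 most-read genes in the total the share of all members was 0.300 to 0.442% at P7 and 0.451 to 0.606% at P14. The part in this difference of the missing TMM scaling, of the synaptic genes, of the CM markers and of reads outside genes was not tested.

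**Figure D5:**
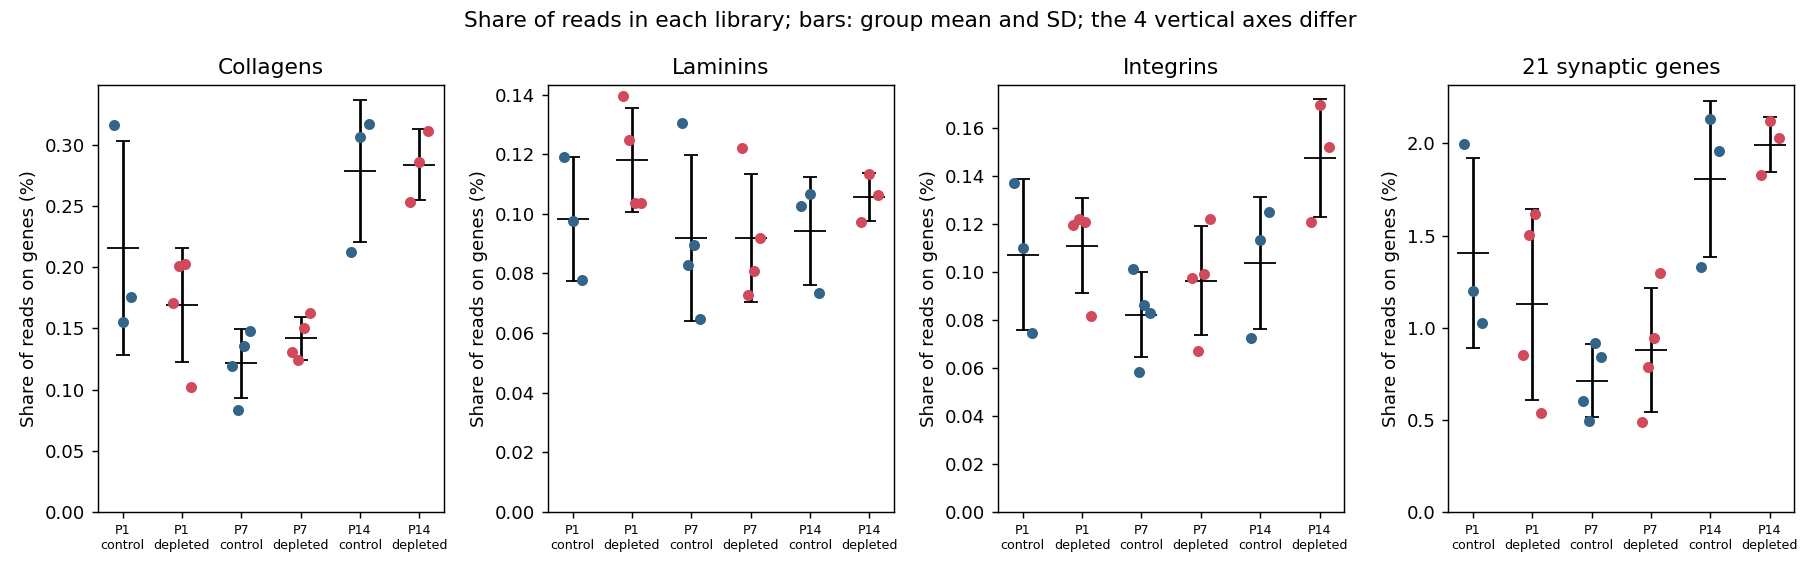
Percent of reads on genes that lay on collagens, laminins, integrins and the 21 long synaptic genes in each of 21 libraries, by day and genotype, with the group mean and SD as bars and a vertical axis of its own for each panel. Shares were taken without TMM scaling. Collagens average 0.132% at P7 and 0.281% at P14, the synaptic genes 0.794 and 1.90%, and laminins lie between 0.0647 and 0.139% in all 21 libraries.

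Genes that make, anchor or read this matrix were taken from 4 lists written by gene symbol and compared between P7 and P14 as the mean of both genotypes, and every called gene among them was lower at P14. Over all genes 8.19% were called in this step, or 1668 genes, against 206 with the share of reads on no gene in the fit. The lists were written with earlier results known, and their calls are given for the main fit only. Of 36 tested genes of integrin adhesion, 8 were called, with a list median of -1.56 on the log2 scale against -0.87 over all genes. They included the talin gene Tln1 (-2.73 ± 0.67, edgeR adjusted p = 0.00174), which switches integrins on, the kindlin gene Fermt2 (-2.41 ± 0.54, edgeR adjusted p = 0.000403) and Flna, which ties integrins to actin. Itgb1bp2, the gene of the muscle protein melusin, changed by -2.22 ± 0.65 (edgeR adjusted p = 0.0135). Of 22 tested partners of the basement membrane 7 were called, with a list median of -1.81. Agrn, whose product binds laminin, changed by -4.53 ± 0.90 (edgeR adjusted p = 3.30e-05), and Hspg2, the gene of perlecan, by -2.03 ± 0.55 (edgeR adjusted p = 0.00579). Dmd, the gene of dystrophin, named after its values were seen, which links laminin to the cytoskeleton through dystroglycan, changed by -1.15 ± 0.26 (edgeR adjusted p = 0.000536). Sgcb, of the sarcoglycan complex, and the peroxidase gene Pxdn, whose product cross-links type IV collagen, were called as well.

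Of 26 tested genes of collagen processing 2 were called, a share near the 8.19% of all genes, with a list median of -2.05, the prolyl hydroxylase P3h3 (-6.87 ± 2.22, edgeR adjusted p = 0.0311) and the lysyl hydroxylase Plod2 (-5.06 ± 1.76, edgeR adjusted p = 0.0492). Of 22 tested genes of other matrix proteins 4 were called, with a list median of -0.58, namely Comp, Mmp15, the protease inhibitor Timp3 (-4.43 ± 1.27, edgeR adjusted p = 0.0107) and the microfibril gene Fbn2 (-1.67 ± 0.43, edgeR adjusted p = 0.00271). Between P1 and P14 the same lists had 4, 2, 0 and 3 called genes in the order given, all lower, where 3.99% of all genes were called and 3.82% lower. No gene of the 4 lists was called between genotypes at any day. Over the same step from P7 to P14, 9 of 10 CM markers were called lower. Their summed mean, without TMM scaling, was 64201 CPM at P7 and 24700 CPM at P14. The part of that fall in the values of these lists was not tested.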

How the data were processed

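Nuclear RNA of sorted CMs was sequenced from transcript 3′ ends (QuantSeq FWD) in 24 libraries. The deposited values are raw counts per gene, made by the authors with FastQC 0.11.8, cutadapt 4.0, STAR 2.6.1e on GRCm39 (Ensembl 108) and HTSeq 2.0.3 over exons and introns, without normalization. The strand setting is not given in the sources used here. Depth was 891817 to 2924097 reads on genes in the libraries fitted, and limits from 3 reads cover counting error only. Reads outside genes entered neither totals nor tests.

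GENCODE vM39 on GRCm39 named 56236 of the 56923 identifiers, with 99.5% of the reads. Groups came from the labels, and the 3 libraries left out from the study's methods, which used limma. Here edgeR 4.0.16 (R 4.3.3) was used with TMM factors, 6 group means over 21 libraries and 15 residual degrees of freedom. Its quasi-likelihood test covered the 20368 genes that had 10 or more reads and were detected in 3 or more libraries, with Benjamini-Hochberg adjustment over all of them. The interaction was tested on 2 coefficients together, without a fold limit. Standard errors were obtained from the fold change and the root of F. The common biological coefficient of variation was 1.5. Replicates were separate pools of hearts, and the 27 pairs of them differed by 17.8 to 75.3 times the sampling noise (chi-square per degree of freedom). In simulated counts of the step from P7 to P14 over 19993 genes, with the spread estimated from the data, 10 of 100 genes changed 4-fold and 49 of 100 changed 16-fold were recovered. The changed genes were drawn from genes with many reads, so members with few reads were not covered.

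Alternatives were filterByExpr, no filter, all 24 libraries, thinning to 891817 reads, limma-voom (limma 3.58.1), DESeq2 1.42.0, a block for the replicate number, a fit of the compared groups only, no fold limit, and leaving out each library. For the summed share, the 10 most-read genes were taken out of the total. A term for the percentage of reads outside genes was added after the data had been seen. Summaries and plots used Python 3.11.15, pandas 2.3.3, numpy 2.4.6 and matplotlib 3.10.9.

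Members, gene lists and tests were chosen with earlier results of these data known. Members named are those called, the 12 with the highest level per kb, the 3 with the smallest unadjusted p under 0.05 in each comparison averaged over genotypes or between genotypes, and a list known in myocardium. From the 4 lists of other matrix genes, up to 5 called genes each were named, and some of these are not reported here. Col11a1, Col14a1, Col4a6, Col20a1, Col24a1, Itga8 and Dmd were named after their values had been seen.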

Additional observations from a re-analysis of the deposited data

Results flagged for a closer look

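In groups of 4 libraries, 120 member levels and summed shares were looked at for 1 library far from the other 3 by Dixon's criterion, and 19 met it. Chance meets it in about 1 group in 20 only for values with a normal distribution. A gene read in 1 of 4 libraries always meets it, so the 19 cannot be set against that rate. Most were a single high library of a gene with few reads. At P1 in Casp2-depleted libraries the high values were 9.995 CPM for Col11a2, 14.0 CPM for Col16a1, 202 CPM for Col5a2, 38.5 CPM for Col6a2 and 1.35 CPM for Lamb3. At P7 in Casp2-depleted libraries they were 6.07 CPM for Col11a2, 64.9 CPM for Col1a1, 12.6 CPM for Col6a1, 12.7 CPM for Col6a5, 5.62 CPM for Col9a1, 86.9 CPM for Itga5 and 1.87 CPM for Itgb7. At P7 in control libraries they were 17.997 CPM for Col16a1, 9.82 CPM for Itga10, 28.5 CPM for Itgb7 and 42.7 CPM for Lamb3. Low values were 31.6 CPM for Itgb5, 0.288% for the share of reads on all members and 0.0814% for that on integrins, each in 1 Casp2-depleted library of P1. The left-out library P1 control replicate 1 had 0.121% of its reads on laminins, over the 0.0777 to 0.119% of the other P1 control libraries.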

How the results depend on the processing

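Of the changes of single named members under all alternatives, 434 kept their direction and their side of the threshold, 62 lost and 7 gained the call, and 2 changed sign. The change of Lamb1 from P7 to P14 as the mean of both genotypes stayed called under each alternative, at -6.15 to -9.03. Counts of called members that moved by over 1.5 times are grouped by step. From P7 to P14 as the mean of both genotypes, 3 members became 12 with limma-voom, 8 with DESeq2, of which Col11a1, Col19a1 and Col8a1 were higher, 1 with the share of reads on no gene and 2 to 6 without 1 library. In control, 2 became 1 with filterByExpr or only the groups compared, 0 with all 24 libraries or the share of reads on no gene, 5 with limma-voom, 4 with DESeq2 and 1 to 3 without 1 library, P14 control replicate 2 giving 3. In Casp2-depleted libraries, 2 became 1 with filterByExpr, all 24 libraries, only the groups compared or the share of reads on no gene, and 1 to 2 without 1 library. From P1 to P14 as the mean, 2 became 1 with filterByExpr, the replicate block, only the groups compared or the share of reads on no gene, and 1 to 5 without 1 library, P14 control replicate 2 giving 5. In control, 1 became 0 with filterByExpr, all 24 libraries or only the groups compared, 2 with limma-voom or DESeq2, and 0 to 3 without 1 library. In Casp2-depleted libraries, 2 became 1 with filterByExpr, no filter, all 24 libraries, thinning, the replicate block, limma-voom, only the groups compared or the share of reads on no gene, and 1 to 2 without 1 library. Between genotypes, 0 became 2 at P1 with limma-voom (Col2a1, Itgb7), 1 at P14 with limma-voom or DESeq2 (Col3a1) and 0 to 2 at P14 without 1 library (Itga5 and Itgb5 without P14 control replicate 2). Steps from P1 to P7, the genotype at P7, its mean over days and the interaction stayed at 0 under each alternative. The change of Lamb2 from P1 to P14 in Casp2-depleted libraries turned to 0.049 with the share of reads on no gene, and that of Col11a2 between genotypes as the mean over days to -0.036 with limma-voom. The causes were not tested.

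The summed share of all members was 0.370% and 0.403% at P7 in control and Casp2-depleted libraries without the 10 most-read genes, and 0.392% at P14 in control with all 24 libraries. Without 1 library it ranged over 0.345 to 0.468% and 0.382 to 0.435% at P1, 0.277 to 0.319% and 0.314 to 0.352% at P7, and 0.451 to 0.521% and 0.521 to 0.570% at P14, control first. Over all genes the calls from P7 to P14 as the mean were 1668, against 206 with the share of reads on no gene, 3242 with limma-voom and 2375 with DESeq2, and the median log2 fold change of -0.87 ranged from -0.52 to -1.07. With DESeq2, 98 of 521 calls from P1 to P14 in control were higher, against 3 of 74, and 86 of 101 from P1 to P7 as the mean, against 27 of 27. Libraries of 1 day with the same number in both genotypes had r over 0.1 in 1 of 9 pairs (r from -0.059 to 0.185, median 0.045). Pairs with unlike numbers had r from -0.140 to 0.0993, with a median of -0.013. The labels call the numbers replicates and the names of the deposited tables batches. They were not taken as pairs in the main fit, but these values do not show that libraries of the same number were unrelated. The replicate block ended the calls of Lamb2 from P1 to P14, as the mean and in Casp2-depleted libraries, and that of Itga9 from P7 to P14, and moved no other count of called members by over 1.5 times. With 3 or 4 libraries a group and a coefficient of variation of 1.5, a 4-fold change would mostly be missed, so genes not called are not shown to be constant.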
